A study of Homo sapiens with 12 samples.

Results

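Matrix metalloproteinases (MMPs) and their tissue inhibitors (TIMPs) were followed through 4 groups of a bead-array study of human bladder (urothelial) cancer cells. The set held 10 genes: the collagenases MMP1 and MMP13, the gelatinases MMP2 and MMP9, the matrilysin MMP7, the stromelysin MMP10, the membrane-anchored MMP14, the epilysin MMP28, and the inhibitors TIMP1 and TIMP2. It was chosen by gene name, with earlier results of these data known. Every probe annotated to these genes was taken, which gave 14 of the 47323 probes on the array and 10 of the 20046 genes with a probe of their own. Of these 10, 8 were tested. MMP1 was detected on 2 of 12 arrays and MMP9 on 0 of 12, so neither passed the filter on dim probes.

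The cells were the established urothelial carcinoma lines UM-UC9 and UM-UC14. UM-UC9 cells were a control or were given rosiglitazone, a thiazolidinedione and ligand of the receptor PPARG, for 24 hours at 1 µM. In UM-UC14 the cells held a short hairpin RNA (shRNA) that was non-targeting or was directed at FABP4, a fatty acid carrier whose gene is a known PPARG target. Each of the 4 groups held 3 arrays, and the study asked what follows when FABP4 is raised by the drug or lowered by knockdown. Both lines grew in medium with serum. Whether the control cells received a vehicle, how many hairpins were used and whether the arrays came from separate cultures are not stated in the labels, so that p-values measure a spread that may be technical.

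The MMPs are zinc-dependent endopeptidases, made as inactive precursors, that cut collagens, laminins and other proteins of the extracellular matrix. MMP14 sits in the plasma membrane, where it cuts the precursor of MMP2 to its active form in a complex with TIMP2. The TIMPs bind the active site of these enzymes and block it. In bladder and other carcinomas much of the MMP protein is known to be made by stromal cells around the tumour, which a cultured line lacks. An array reads the messenger RNA of these genes and says nothing of secretion, activation or inhibition of the proteins.

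Intensities are given as normalized log2 values, in which 1 unit is a 2-fold difference, after background correction and quantile normalization. A probe was detected on an array when its detection p was below 0.05, and the lowest signal of any detected probe lay between 4.77 and 4.88 on this scale. The arrays had 20892 to 22407 detected probes (44.1% to 47.3%). FABP4 moved as labelled, from 10.96 ± 0.13 to 14.66 ± 0.05 with rosiglitazone and from 14.04 ± 0.10 to 10.33 ± 0.19 with its shRNA (SD, n = 3 arrays each). Non-targeting replicate 1 stood apart from its group: its correlation across genes was 0.989 with the averaged FABP4 shRNA arrays and 0.988 with the averaged other non-targeting arrays. The members called in UM-UC14 are therefore also given without it, and with it as the only control. Of 15 epithelial and urothelial markers with a probe, 11 to 14 were detected on all 3 arrays of a group. GATA3, EPCAM and CDH1 were among them in every group. UPK3A was detected on no array, UPK1A on no UM-UC9 array, and KRT5 and KRT20 on no non-targeting array.

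MMP7, MMP10, MMP1 and MMP13 lie in one run of genes on chromosome 11, where all 9 protein-coding genes from MMP7 to MMP13 are MMPs (RefSeq, GRCh38.p14). The table of promoter sequences used here, 250 bases before to 50 after the annotated start, held 4 of the 10 members. The promoters of MMP7, MMP14 and TIMP1 are shown because these were the members with an entry that passed a test of treatment. MMP7 is at chr11:102530698-102530997 on the minus strand, MMP14 at chr14:22836335-22836634 on the plus strand and TIMP1 at chrX:47582186-47582485 on the plus strand. Each is written 5′ to 3′ in the direction of transcription. Capitals mark matches to 4 motifs searched on both strands: TGAGTCA (AP-1, bound by FOS and JUN proteins), TATAAA (the TATA box), GGGCGG (the GC box, bound by SP1) and AGGAAG (PEA3, bound by ETS proteins).
MMP7: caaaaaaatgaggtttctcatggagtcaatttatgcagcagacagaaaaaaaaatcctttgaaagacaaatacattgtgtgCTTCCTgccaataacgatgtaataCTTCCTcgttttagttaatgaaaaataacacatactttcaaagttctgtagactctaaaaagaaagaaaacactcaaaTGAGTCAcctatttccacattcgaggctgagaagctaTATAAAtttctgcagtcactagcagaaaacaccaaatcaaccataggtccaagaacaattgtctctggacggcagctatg
MMP14: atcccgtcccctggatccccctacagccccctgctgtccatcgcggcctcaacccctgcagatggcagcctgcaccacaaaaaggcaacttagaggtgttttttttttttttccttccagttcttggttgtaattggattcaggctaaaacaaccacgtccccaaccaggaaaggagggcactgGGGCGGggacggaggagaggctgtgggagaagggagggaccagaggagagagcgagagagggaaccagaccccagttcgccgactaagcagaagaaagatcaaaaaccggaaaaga
TIMP1: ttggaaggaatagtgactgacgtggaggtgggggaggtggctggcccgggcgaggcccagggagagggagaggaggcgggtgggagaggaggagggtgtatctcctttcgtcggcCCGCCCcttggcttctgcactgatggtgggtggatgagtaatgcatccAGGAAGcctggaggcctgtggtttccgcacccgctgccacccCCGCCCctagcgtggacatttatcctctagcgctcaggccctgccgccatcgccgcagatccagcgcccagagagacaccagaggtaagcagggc
The MMP7 promoter held TGAGTCA at bases -67 to -61 from the start, TATAAA at -30 to -25, and AGGAAG on the opposite strand at -169 to -164 and at -145 to -140. In the MMP14 promoter GGGCGG was found at -66 to -61 and none of the other motifs. The TIMP1 promoter held GGGCGG on the opposite strand at -135 to -130 and at -45 to -40, and AGGAAG at -87 to -82. None of these matches overlapped another. Among all 35116 promoters of that length, TGAGTCA was present in 4.95%, TATAAA in 11.5%, GGGCGG in 45.0% and AGGAAG in 33.6%. A PPAR response element, taken as 2 copies of AGGTCA in the same direction with 1 base of any kind between them, was in 0.0228% of all promoters, and such a repeat was in none of the 4 members' windows. A match is a description of the letters and not evidence of binding.

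The levels of the members separated the lines. MMP2, MMP13, MMP14 and MMP28 were detected on all 3 arrays of UM-UC14 with non-targeting shRNA and, at the probes tested, on none of the UM-UC9 control arrays. MMP7 showed the opposite pattern. TIMP1 and TIMP2 were detected on all 12 arrays and were higher in UM-UC9. MMP10 was detected on 1 non-targeting and 2 FABP4 shRNA arrays and on none of the 6 UM-UC9 arrays. MMP1 was detected on 1 control and 1 rosiglitazone array of UM-UC9, and its raw intensities ran from 43.8 to 67.5 over the 12 arrays. The MMP9 probe had raw intensities of 32.9 to 47.0, with no detection p below 0.59.

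**Figure D1:**
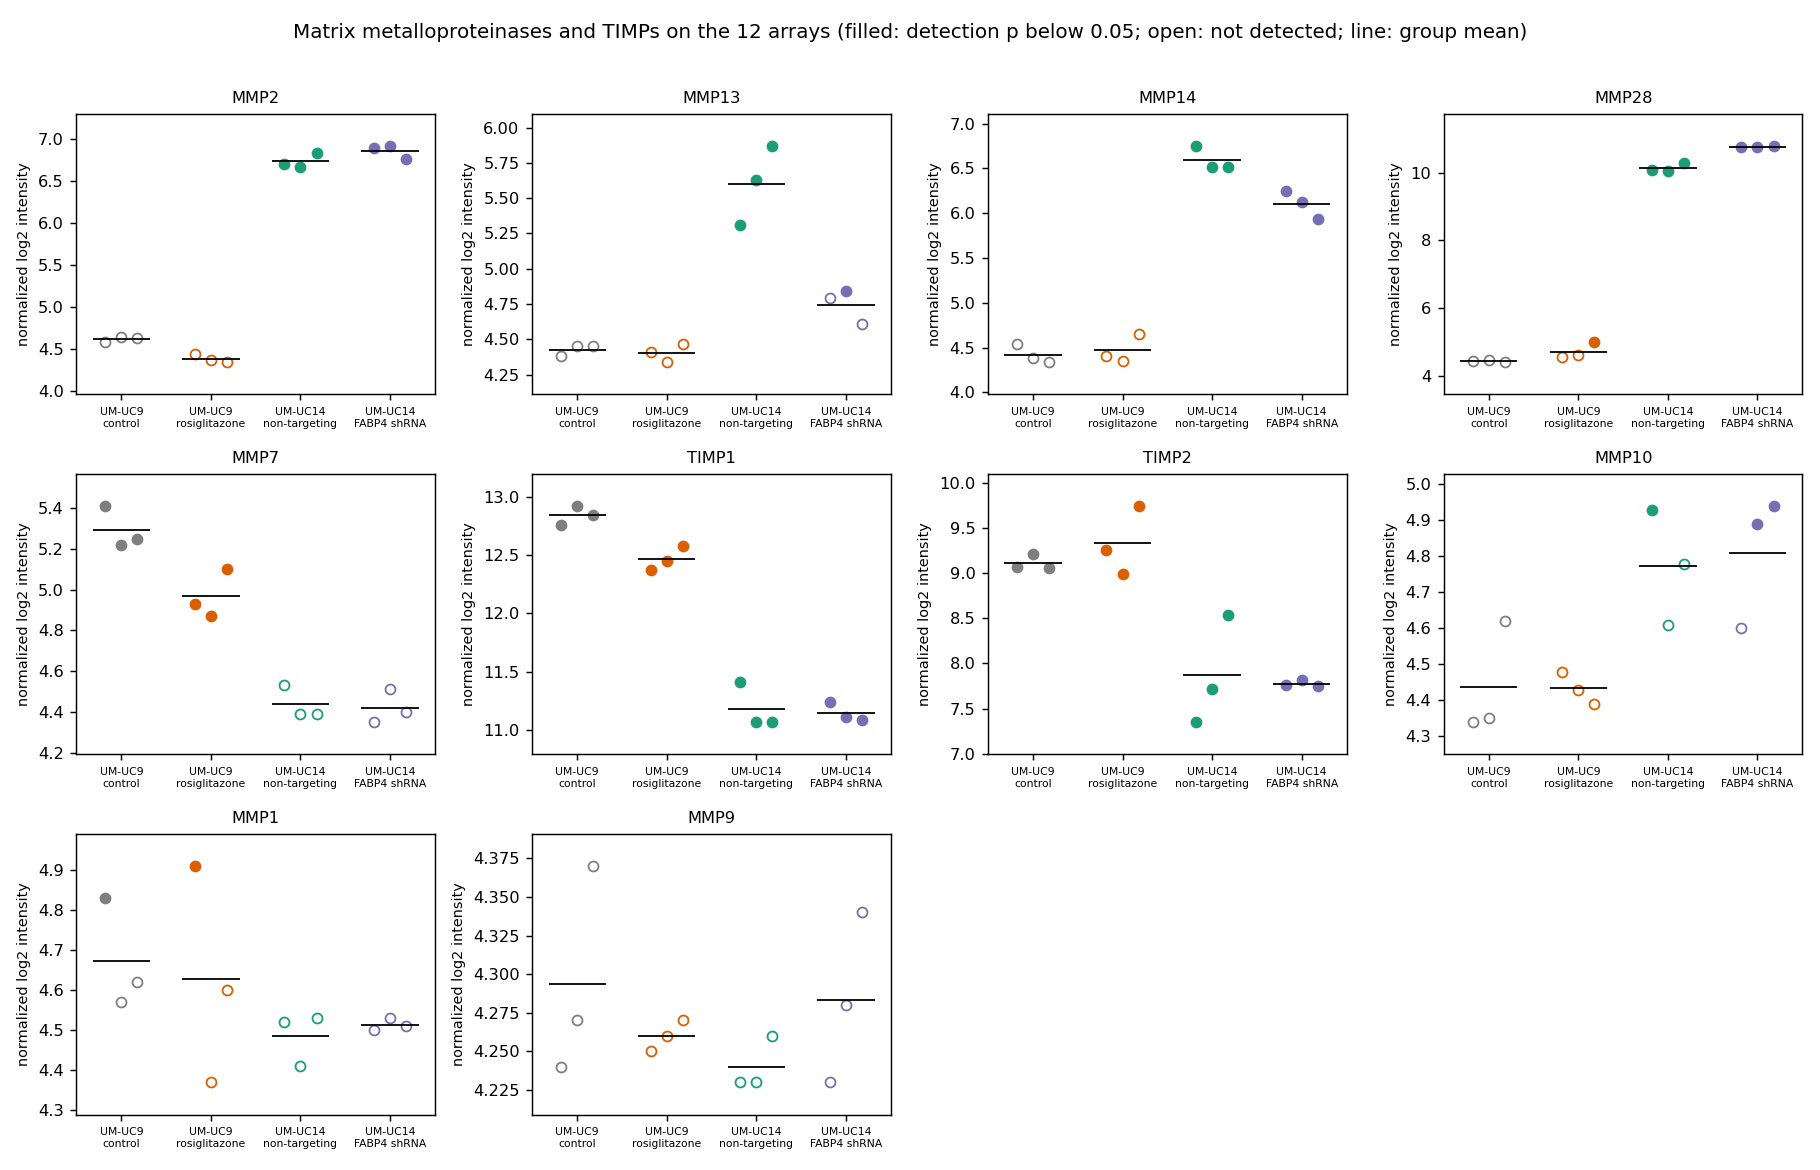
Normalized log2 intensity (vertical axes, each with its own range) of the 10 members on the 12 arrays, at the tested probe or, for MMP1 and MMP9, at the probe that did not pass the filter. Filled points are arrays with a detection p below 0.05, open points are arrays without detection, and lines are group means. MMP28 lies at 10.06 or above in UM-UC14 and at 4.98 or below in UM-UC9, while TIMP1 is filled on all 12 arrays.

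In the comparison of the control states, UM-UC14 with non-targeting shRNA minus UM-UC9 control, 6 of the 8 tested members passed an adjusted p below 0.05 with a fold of at least 2, against 25.9% of all 13293 genes. MMP2, MMP13, MMP14 and MMP28 were higher in UM-UC14, as were 13% of all genes (1724), and TIMP1 and TIMP2 were lower, as were another 13% (1725). The median log2 difference of the 8 members was 0.76, beside -0.015 over all genes. MMP2, MMP10, MMP13, MMP14 and MMP28 would not have passed the filter on dim probes without their UM-UC14 arrays, nor MMP7 without its UM-UC9 arrays. Detection in the brighter line was thus a condition of testing them, so that the counts and the median here are descriptions. The line, the hairpin vector and the culture of each line cannot be told apart in this comparison. When arrays were scaled to a common median instead of quantile normalized, the median over all genes shifted by -0.13 and the share of calls that were higher was 39.7% in place of 50%, and the 6 members were called there too.

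MMP28, whose product is found in epithelia, had raw intensities of 1154, 973 and 1181 in UM-UC14 with non-targeting shRNA and of 51.2, 48.3 and 48.7 in UM-UC9 controls. The groups did not overlap, and the difference was at least 40.1-fold against the detection limit of the UM-UC9 arrays (limma, adjusted p = 2.1e-14). This bound depends on the background correction: the fitted log2 difference was 5.71, and 4.55 without background correction or with the authors' values. At the probe ILMN_1791508, also undetected in UM-UC9 controls, MMP28 was at least 3.35-fold higher, and at ILMN_1752952, detected on 1 of the 3 controls, the values were 8.48, 8.23 and 8.31 against 4.29, 4.82 and 4.76. MMP2, which degrades gelatin and basement membrane collagen, had normalized log2 values of 6.70, 6.67 and 6.84 against 4.59, 4.65 and 4.63. That is at least 3.78-fold higher (adjusted p = 4.3e-11). MMP14, the activator of MMP2, had 6.75, 6.51 and 6.52 against 4.54, 4.39 and 4.34, at least 3.42-fold higher (adjusted p = 8.7e-10). All UM-UC9 values of MMP2 and MMP14 lay below detection, so that only a lower bound can be given, and it too holds for this background correction alone. Without the correction the log2 differences were 1.32 for MMP2 and 1.40 for MMP14, in place of 2.11 and 2.17, and with an offset of 50 they were 1.26 and 1.24, each still called. MMP13, which cleaves fibrillar collagen, had 5.31, 5.63 and 5.87 against 4.38, 4.45 and 4.45, at least 1.73-fold higher (adjusted p = 1.3e-06). Its log2 difference was 1.18, and 0.73 without background correction and 0.58 with the offset of 50, so that this bound too holds for the correction used.

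TIMP1, a broad inhibitor of secreted MMPs, had 12.76, 12.92 and 12.84 in UM-UC9 controls and 11.41, 11.07 and 11.07 in UM-UC14 with non-targeting shRNA. It was 3.15-fold lower in UM-UC14 (log2 difference -1.66, SE 0.11, adjusted p = 7.5e-09). TIMP2 had 9.07, 9.21 and 9.06 against 7.35, 7.72 and 8.53, a log2 difference of -1.25 (SE 0.24, adjusted p = 0.00036), and its other probe gave -1.32. The groups did not overlap, but at the tested probe the non-targeting arrays of TIMP2 spread over more than 1 log2 unit. Without non-targeting replicate 1 the TIMP2 difference was -0.99, under 2-fold. MMP7 was lower in UM-UC14 by at least 1.38-fold at the tested probe (log2 difference -0.86, adjusted p = 2.6e-06) and by at least 1.48-fold at the other, and neither probe was detected on any of the 6 UM-UC14 arrays. MMP10 differed by 0.33 (adjusted p = 0.023), under 2-fold, with values on either side of the detection limit.

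Some fibroblast and blood genes also differed between the lines, in both directions. The summed normalized intensity of 12 fibroblast markers was 2700 to 3020 in UM-UC9 controls, 4160 to 4680 with rosiglitazone, 6250 to 7740 with non-targeting shRNA and 5810 to 6680 with FABP4 shRNA. On all 3 arrays of the respective group 5, 3, 3 and 3 of these markers were detected, and COL3A1, FAP, PDGFRA, PDGFRB, POSTN and THY1 on none of the 12 arrays. Most of each fibroblast sum was 1 gene, FBLN1, with mean log2 values of 11.28, 11.95, 12.61 and 12.41 in that order of groups. Between the lines, 3 of the 6 tested fibroblast markers were called higher in UM-UC14 and 1 lower. For 12 blood and endothelial markers the sums were 1230 to 1350, 2120 to 2580, 3850 to 5260 and 2620 to 2890, with 5, 5, 4 and 4 markers detected on all 3 arrays, and PTPRC, CD3E, KDR and VWF on none of the 12. The brightest gene of that list in every group was CD68, with mean log2 values of 9.20, 10.35, 11.88 and 11.00. Between the lines, 3 of the 8 tested blood and endothelial markers were called higher in UM-UC14 and 2 lower. The part of the fibroblast and blood genes in the MMP and TIMP differences was not tested. In such bulk RNA, fewer cells that express a gene and less RNA per cell cannot be told apart.

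Genes with a profile like those of the members with the widest range were named as a description, by Pearson's r over the 12 arrays, which share the large step between the lines. LYRM2 and S1PR5 were most like MMP28 (r = 0.999 each), CMBL and PM20D2 most like MMP2 (0.999 each), and SYT8 and CYP4F11 most like MMP14 (0.995 each). S1PR5, a receptor for sphingosine 1-phosphate, had group means of 4.31, 4.26, 8.29 and 8.88 in the order UM-UC9 control, rosiglitazone, non-targeting and FABP4 shRNA. CYP4F11, a fatty acid hydroxylase, had 4.74, 4.86, 7.39 and 6.83 in that order.

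With rosiglitazone in UM-UC9, TIMP1 and MMP7 fell, and 0 members rose (1, MMP28, was higher at an unadjusted p below 0.05). MMP28 passed with arrayWeights (0.24, adjusted p = 0.049) and without rosiglitazone replicate 1 (0.36, adjusted p = 0.047), where it was the 1 member called. In all, 3 of the 8 tested members passed an adjusted p below 0.05, against 36.0% of all genes (17% higher and 19% lower), and the median log2 change was -0.01 for the members and -0.017 for all genes. The third was MMP2, which was detected on 0 of these 6 arrays. Its raw intensities were 49.3 to 56.5, its log2 change was -0.24 (adjusted p = 0.046), and no fold is given for it.

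TIMP1 had 12.76, 12.92 and 12.84 in controls and 12.37, 12.45 and 12.58 with the drug. Every treated array lay below every control array. The log2 change was -0.38 (SE 0.11, adjusted p = 0.015), a 1.30-fold fall. The adjusted p was up to 0.065 without control replicate 2 or without rosiglitazone replicate 1, and the change stayed between -0.43 and -0.33 in all 23 alternatives.

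MMP7, which is typical of epithelial cells and cuts matrix proteins and cell surface ligands, had 5.41, 5.22 and 5.25 in controls and 4.93, 4.87 and 5.10 with the drug at the tested probe. The groups did not overlap, and the log2 change was -0.33 (SE 0.10, adjusted p = 0.018). At its other probe the values were 5.16, 5.41 and 5.62 against 4.67, 4.58 and 4.76. There the gene was detected on all 3 control arrays and on none of the treated ones, and it was at least 1.5-fold lower (fitted log2 change -0.73, SE 0.11, adjusted p = 0.00031 over all kept probes). This other probe was detected on no further array. It passed the filter only through the control group, in which it was high, so that its adjusted p is no separate support for the fall. The raw intensities of both probes, 58.4 to 83.3 in UM-UC9, were near the array medians of 52.8 to 62.6, and the call at the tested probe was lost in 6 of 22 alternatives (adjusted p up to 0.11): without control replicate 1, rosiglitazone replicate 1 or rosiglitazone replicate 2, without background correction, with the authors' values and with the larger offset.

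The remaining members did not pass the test with the drug. MMP28 had 4.42, 4.47 and 4.40 in controls and 4.55, 4.60 and 4.98 with rosiglitazone, detected on 1 treated array (log2 change 0.28, adjusted p = 0.072), while its other probes gave -0.11 and -0.04. TIMP2 had 9.07, 9.21 and 9.06 against 9.25, 8.99 and 9.74, a log2 change of 0.21 with a 95% confidence interval of -0.30 to 0.73. Rosiglitazone replicate 3 was the highest array at both TIMP2 probes. MMP10, MMP13 and MMP14 were detected on none of these 6 arrays, so that a change in them could not be measured here, and the same held for MMP9.

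**Figure D2:**
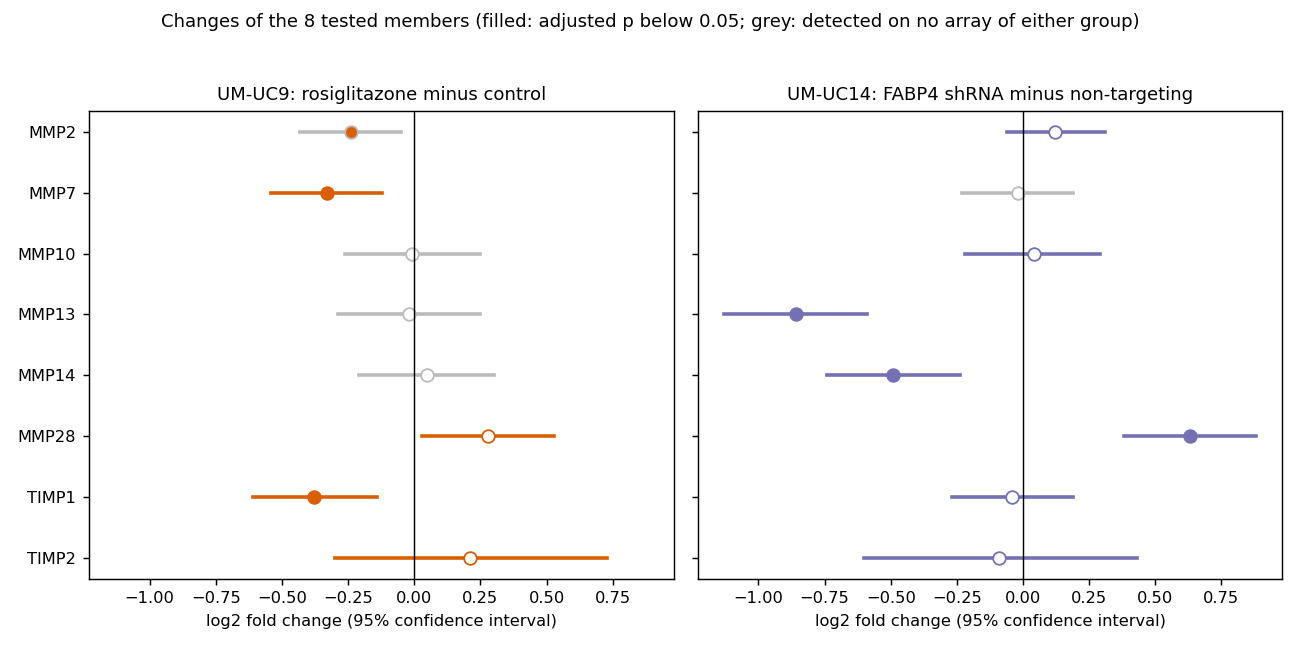
Log2 fold change (horizontal axis) of the 8 tested members with rosiglitazone in UM-UC9 and with FABP4 shRNA in UM-UC14, with 95% confidence intervals from limma. Filled points passed an adjusted p below 0.05, and grey marks a gene detected on none of the arrays of either group compared. TIMP1 (-0.38) and MMP7 (-0.33) are the detected members called with the drug, and MMP13 (-0.86), MMP14 (-0.49) and MMP28 (0.63) are called with the shRNA.

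With FABP4 shRNA in UM-UC14, MMP13 and MMP14 fell and MMP28 rose. These 3 of 8 tested members compare with 26.3% of all genes called (14.2% higher and 12.2% lower), and the median log2 change was -0.03 for the members and 0.019 for all genes. With median scaling 70% of all calls were higher in place of 53.8%, and the same 3 members were called in the same directions. They were called in all 23 alternatives in which they were tested. MMP13 would not have passed the filter without the non-targeting arrays, in which it was high. Except in the fit with no filter on dim probes, that was a condition of its test, so these calls are no separate support for its fall.

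MMP28 had raw intensities of 1154, 973 and 1181 with non-targeting shRNA and of 1746, 1770 and 1913 with FABP4 shRNA. Every knockdown array was brighter than every control array. The log2 change was 0.63 (SE 0.11, adjusted p = 0.0017), a 1.55-fold rise. At its probe ILMN_1752952 the normalized log2 values rose from 8.48, 8.23 and 8.31 to 9.04, 9.15 and 9.23, and at ILMN_1791508 from 6.65, 6.50 and 6.55 to 7.40, 7.35 and 7.66. Those changes were 0.80 and 0.91 (adjusted p = 0.0014 and 0.00033 over all kept probes). These probes are annotated to one RefSeq transcript and the tested probe, ILMN_2399016, to another, and a rise was measured at all 3. Against non-targeting replicate 1 alone the change was 0.70 (adjusted p = 0.0089), and without that array it was 0.59 (adjusted p = 0.0021).

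**Figure D3:**
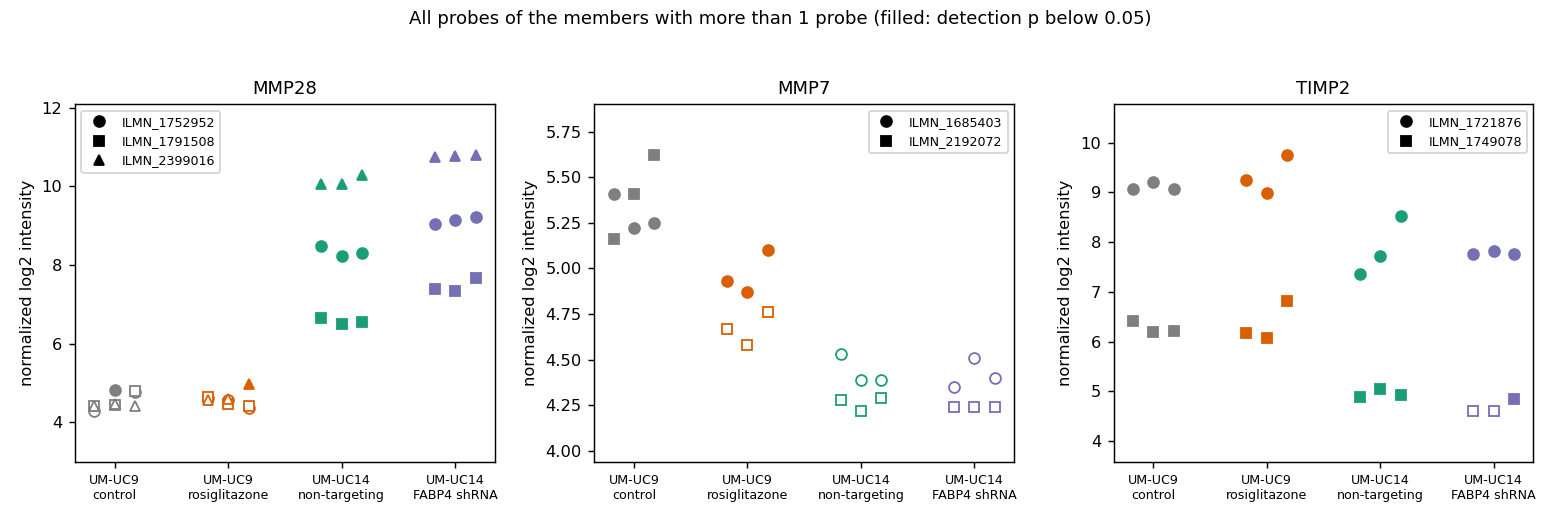
Normalized log2 intensity (vertical axes) of every probe of MMP28, MMP7 and TIMP2 on the 12 arrays, with a marker shape for each probe and filled points where the detection p was below 0.05. All 3 MMP28 probes are higher with FABP4 shRNA than with non-targeting shRNA on every array, and both MMP7 probes are lower with rosiglitazone than in controls.

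MMP14 had 6.75, 6.51 and 6.52 with non-targeting shRNA and 6.25, 6.12 and 5.93 with FABP4 shRNA, and was detected on all 6 arrays. The groups did not overlap, and the log2 change was -0.49 (SE 0.12, adjusted p = 0.0081), a 1.41-fold fall. It was -0.65 against non-targeting replicate 1 alone (adjusted p = 0.015) and -0.41 without it (adjusted p = 0.013). MMP13 had 5.31, 5.63 and 5.87 with non-targeting shRNA and 4.79, 4.84 and 4.61 with FABP4 shRNA. It was detected on 3 of 3 control arrays and on 1 of 3 knockdown arrays, with raw intensities of 71.5, 77.0 and 88.0 against 62.4, 61.9 and 55.2. The fitted log2 change of MMP13 was -0.86 (SE 0.12, adjusted p = 0.00039), and because the knockdown arrays lie at the detection limit its size is uncertain. MMP13 would not have passed the filter on dim probes without the non-targeting arrays, the group in which it was higher. Non-targeting replicate 1 was the control array nearest to the knockdown arrays: against it alone MMP13 changed by -0.57 (adjusted p = 0.0074), and without it by -1.01 (adjusted p = 1.1e-05).

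The partners of MMP14 in the activation of MMP2 did not pass the test with FABP4 shRNA. MMP2 had 6.70, 6.67 and 6.84 against 6.90, 6.92 and 6.76, a log2 change of 0.12 with a 95% confidence interval of -0.06 to 0.31 (adjusted p = 0.32), which was 0.16 against non-targeting replicate 1 alone and 0.11 without it. At its probe ILMN_1749078 TIMP2 had 4.89, 5.04 and 4.93 against 4.61, 4.61 and 4.85 (log2 change -0.27, adjusted p = 0.27 over all kept probes). The groups did not overlap there, with detection on 3 non-targeting arrays and 1 FABP4 shRNA array. At the tested probe TIMP2 had 7.35, 7.72 and 8.53 against 7.76, 7.82 and 7.75. Its change was -0.09 with an interval of -0.60 to 0.43, was 0.43 (adjusted p = 0.20) against non-targeting replicate 1 alone and was -0.35 (adjusted p = 0.23) without that array. TIMP1 had 11.41, 11.07 and 11.07 against 11.24, 11.11 and 11.09, a change of -0.04 with an interval of -0.27 to 0.19, which was -0.26 (adjusted p = 0.17) against non-targeting replicate 1 alone and 0.07 (adjusted p = 0.59) without it. For MMP10 the change was 0.04 (interval -0.22 to 0.29), and MMP7 was not detected on these arrays.

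**Figure D4:**
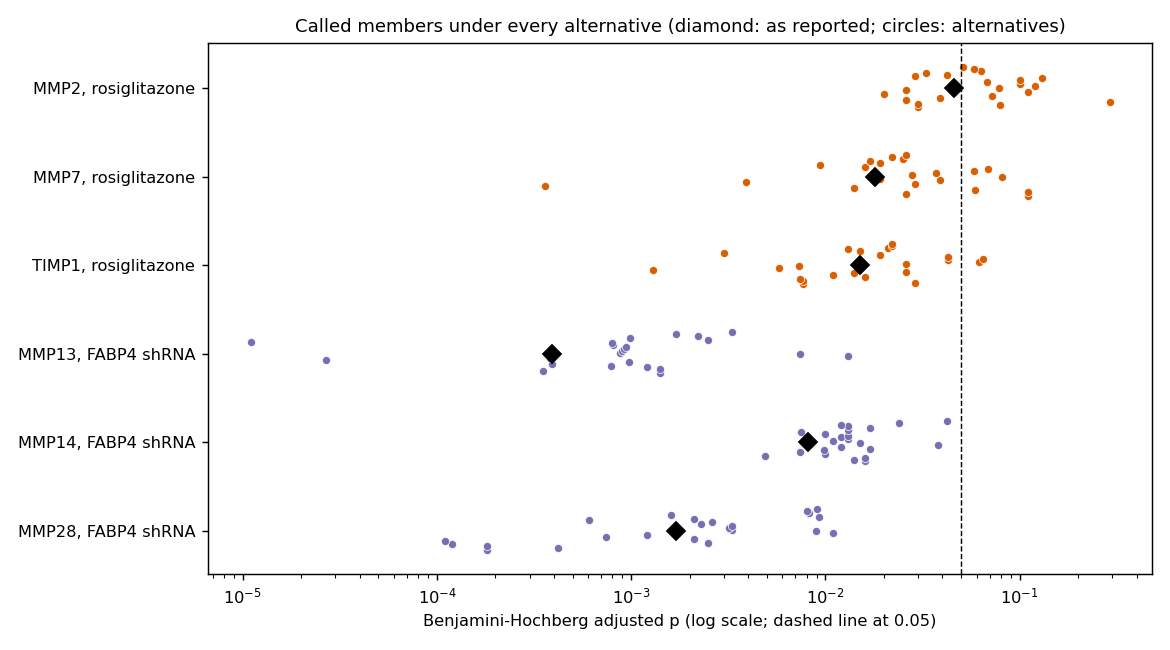
Benjamini-Hochberg adjusted p (horizontal axis, log scale) of the members called in either treatment comparison, as reported (diamonds) and under each alternative in which the gene was tested (circles). The shRNA calls of MMP13, MMP14 and MMP28 stay left of 0.05 (highest value 0.042, for MMP14), whereas circles of MMP2, MMP7 and TIMP1 under rosiglitazone lie on both sides. Except in the fit with no filter on dim probes, MMP13 was tested only because it was detected on the non-targeting arrays.

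The difference between the drug change and the shRNA change was tested as 1 contrast of the same model. It passed for 3 of the 8 tested members, against 41.5% of all genes (19.1% with a positive difference and 22.4% with a negative one): MMP13 (0.84, SE 0.18, adjusted p = 0.0021), MMP14 (0.54, SE 0.17, adjusted p = 0.019) and MMP2 (-0.36, SE 0.12, adjusted p = 0.030). MMP2, MMP13 and MMP14 were detected on none of the 6 UM-UC9 arrays, so that their drug change is a difference between undetected values. For MMP13 and MMP14 the contrast therefore restates the fall with the shRNA, and a difference between the responses was not measured for any of the 3. The MMP2 call was lost in 9 of 22 alternatives (adjusted p up to 0.11, log2 difference -0.42 to -0.19): with an offset of 50, with a trended and robust eBayes, and without control replicate 2 or 3, rosiglitazone replicate 2 or 3, non-targeting replicate 2, or FABP4 shRNA replicate 1 or 2. The MMP14 call was lost without rosiglitazone replicate 3 and without FABP4 shRNA replicate 3 (adjusted p up to 0.052). For TIMP1 the difference was -0.34 (adjusted p = 0.095) and for MMP7 -0.31 (adjusted p = 0.085) at the tested probe and -0.70 (adjusted p = 0.0040) at the other. That other MMP7 probe passed the filter only through the UM-UC9 control arrays. The tested MMP28 probe gave -0.35 (adjusted p = 0.10), and its other probes gave -0.91 and -0.95 (adjusted p = 0.0027 and 0.0012). In UM-UC9 the tested MMP28 probe was detected on 1 rosiglitazone array alone, ILMN_1752952 on 1 control array alone and ILMN_1791508 on no array. Neither MMP7 probe was detected in UM-UC14. For MMP28 and MMP7 too, a difference between the responses was therefore not measured. With median scaling the median over all genes shifted by -0.11 in this contrast, 33.1% of calls were higher in place of 46%, and TIMP1 and MMP28 were called besides the 3 (5 in all).

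Among 15 other MMPs, 8 were detected on none of the 12 arrays, namely MMP3, MMP8, MMP16, MMP17, MMP20, MMP24, MMP26 and MMP27, and 6 were tested. With rosiglitazone 2 of the 6 rose and 2 fell, beside 17% and 19% of all genes. MMP19, which degrades basement membrane proteins, went from 4.80, 4.71 and 4.63 to 6.09, 6.38 and 6.34 (log2 change 1.56, SE 0.12, adjusted p = 7.1e-07), and was detected on only 1 of the 3 control arrays. MMP25, a membrane-anchored enzyme, went from 5.35, 5.39 and 5.12 to 6.34, 6.22 and 6.25 (0.98, SE 0.11, adjusted p = 2.2e-05). Both therefore rose in the line and treatment in which MMP7 and TIMP1 fell. MMP11 changed by -0.36 (adjusted p = 0.040) and lost its call in 9 of 22 alternatives, and MMP15, outside the rule for named genes, changed by -0.32 (adjusted p = 0.026). With FABP4 shRNA 0 of the 6 passed the limma test in either direction, beside 26.3% of all genes, and 0 had an unadjusted p below 0.05.

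**Figure D5:**
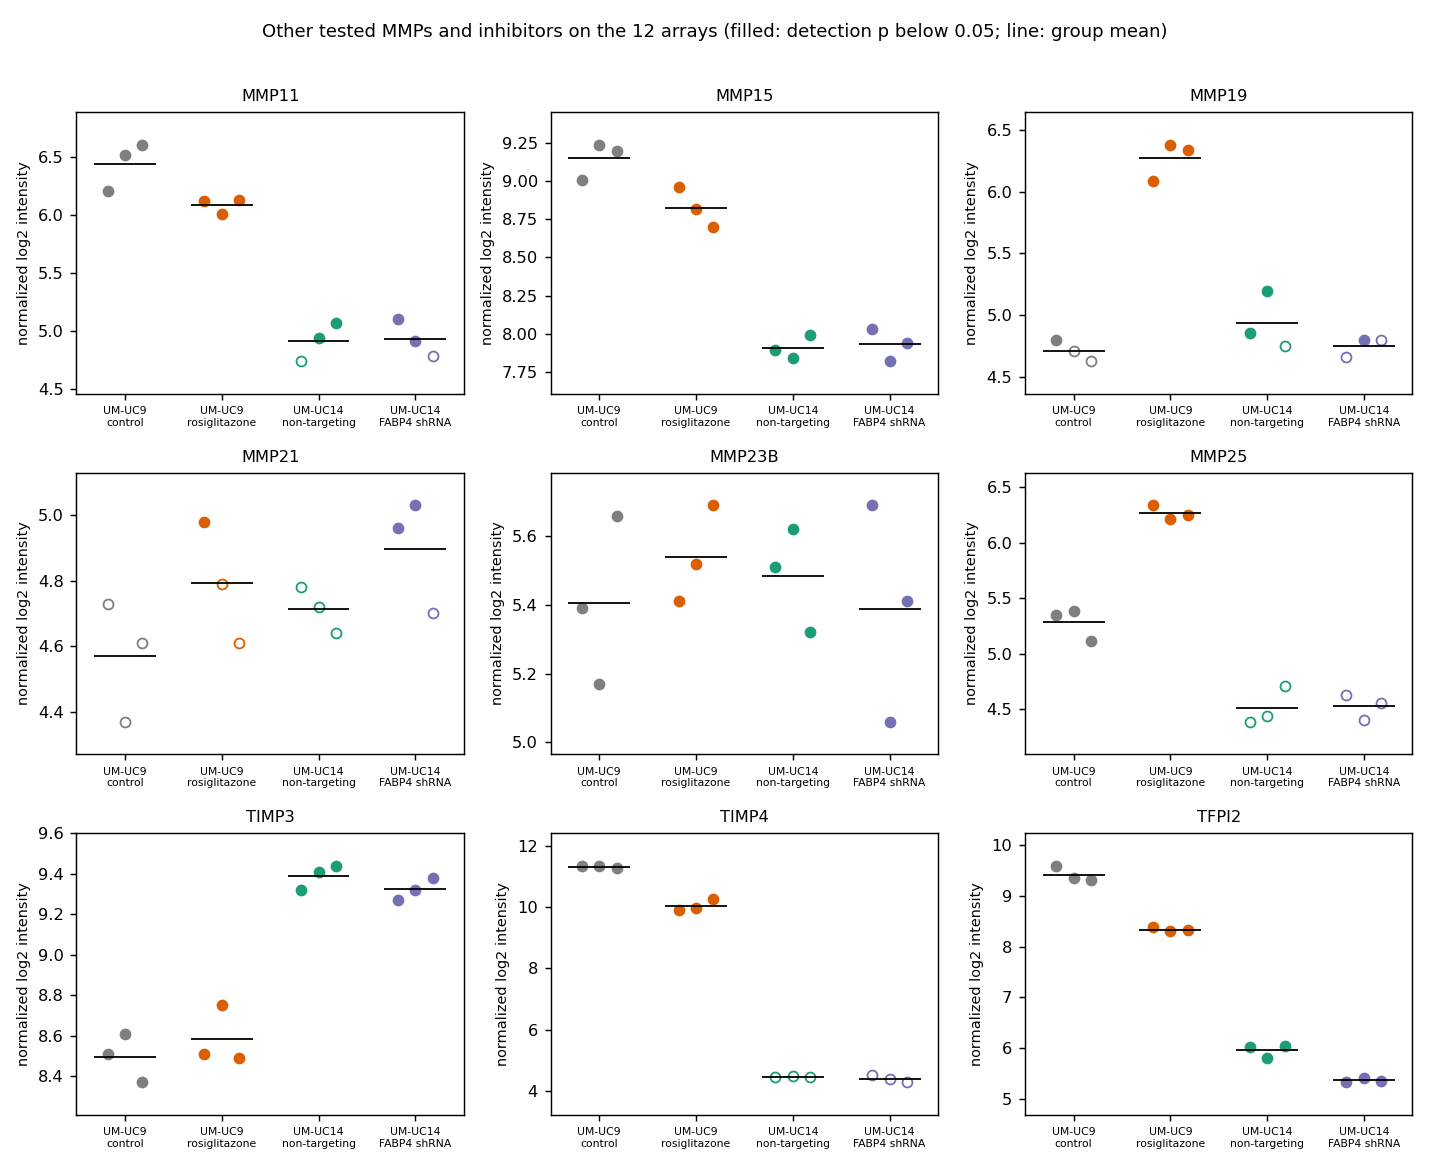
Normalized log2 intensity (vertical axes, each with its own range) of the other tested MMPs and inhibitors on the 12 arrays, with filled points where the detection p was below 0.05 and lines at group means. MMP19 and MMP25 are higher with rosiglitazone than in UM-UC9 controls, TIMP4 and TFPI2 are lower, and TIMP4 is detected in UM-UC9 alone.

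Of 3 other inhibitors tested, 2 fell with the drug, beside 19% of all genes. TIMP4 went from 11.34, 11.36 and 11.30 to 9.91, 9.98 and 10.27 (log2 change -1.28, SE 0.10, adjusted p = 9.9e-07), and was detected on none of the UM-UC14 arrays. TFPI2, a serine protease inhibitor of the matrix, went from 9.59, 9.34 and 9.30 to 8.38, 8.30 and 8.32 with rosiglitazone (-1.07, SE 0.10, adjusted p = 4.4e-06). In UM-UC14 it went from 6.03, 5.80 and 6.05 to 5.33, 5.42 and 5.35 with FABP4 shRNA (-0.59, SE 0.10, adjusted p = 0.0013), so that it fell in both comparisons. Against non-targeting replicate 1 alone TFPI2 changed by -0.66 (adjusted p = 0.0049). TIMP3, detected on all 12 arrays, changed by 0.09 (adjusted p = 0.53) and -0.07 (adjusted p = 0.68).

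Of 17 tested activators and cofactors of MMPs, 3 rose and 2 fell with rosiglitazone, beside 17% and 19% of all genes. CD44, a hyaluronan receptor that can hold MMPs at the cell surface, fell from 11.73 ± 0.04 to 9.56 ± 0.07 (SD, n = 3 each, log2 change -2.18, adjusted p = 7.9e-10). The membrane serine protease TMPRSS4 rose by 0.93 (adjusted p = 0.00065) and the proprotein convertase PCSK6 by 0.87 (adjusted p = 8.8e-05). With FABP4 shRNA 6 rose and 5 fell, beside 14.2% and 12.2% of all genes, and with median scaling 7 rose and 2 fell. LCN2, which binds MMP9 and protects it from degradation, fell from 12.48 ± 0.25 to 9.08 ± 0.13 (-3.40, adjusted p = 1.9e-09), in cells where MMP9 itself was not detected. TMPRSS4 fell by 1.22 on the log2 scale (adjusted p = 2e-04), and FURIN, a convertase that activates the MMP14 and MMP28 precursors, rose by 0.81 (adjusted p = 0.00047). Against non-targeting replicate 1 alone, 2 rose and 3 fell, and LCN2, TMPRSS4 and FURIN were called there with -3.66, -0.76 and 0.57. Without that array 5 rose and 6 fell.

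The ADAM and ADAMTS proteases are relatives of the MMPs that shed surface proteins or cut proteoglycans. Among 11 tested, 2 rose and 3 fell with the drug, beside 17% and 19% of all genes. ADAM19 changed by -1.15 (adjusted p = 4.2e-06), ADAM28 by -0.52 (adjusted p = 0.0026) and ADAMTSL4 by 0.39 (adjusted p = 0.017). ADAMTSL4 is ADAMTS-like, and its product is not a protease. The ADAMTSL4 call was lost in 4 of 22 alternatives, all of them without 1 UM-UC9 array. With FABP4 shRNA 2 rose and 1 fell, beside 14.2% and 12.2% of all genes. ADAM28 changed by -0.84 (adjusted p = 0.00019), so that it fell in both comparisons, and ADAMTS1 by 0.81 (adjusted p = 0.0010). Against non-targeting replicate 1 alone these were -0.69 and 0.92, with 1 of the list higher and 1 lower, and without that array 2 rose and 2 fell. ADAM8 changed by 0.46 (adjusted p = 0.040) and lost its call in 12 of 23 alternatives.

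The substrates were 19 tested collagens, laminins and other matrix genes. With rosiglitazone 2 rose and 5 fell, beside 17% and 19% of all genes. Among the type IV collagen chains of basement membranes, COL4A5 changed by -1.10 (adjusted p = 1.7e-06) and COL4A2 by 0.69 (adjusted p = 0.0030). COL4A1 changed by 0.52 (adjusted p = 0.030) and was not called in 6 of 23 alternatives. With FABP4 shRNA 5 rose and 1 fell, beside 14.2% and 12.2% of all genes. The fibrillar collagen gene COL5A1 rose from 9.00 ± 0.46 to 10.36 ± 0.03 (SD, n = 3 each, 1.36, adjusted p = 0.00022), COL4A1 by 0.91 (adjusted p = 0.0024) and COL1A1 by 0.90 (adjusted p = 0.0010). Against non-targeting replicate 1 alone 4 rose and 0 fell, with 0.83 for COL5A1, 1.43 for COL4A1 and 0.52 for COL1A1.

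All 19 listed transcription factors of MMP promoters were tested, and they include proteins that bind the AP-1, GC box and PEA3 motifs marked in the sequences. With rosiglitazone 4 rose and 6 fell, beside 17% and 19% of all genes. The AP-1 subunits FOS and FOSL1 moved apart, by 0.90 (adjusted p = 0.0027) and -0.88 (adjusted p = 0.00031), and RUNX2, an activator of MMP13 in bone cells, changed by -0.97 (adjusted p = 0.029, not called in 7 of 22 alternatives). With FABP4 shRNA 2 rose and 7 fell, beside 14.2% and 12.2% of all genes. The median change of the 19 was -0.36 beside 0.019 over all genes. FOSL2 fell by 0.98 (adjusted p = 5.7e-05) and FOSB by 0.84 (adjusted p = 0.00056). RUNX2 changed by -1.18 (adjusted p = 0.016), but by -0.20 (adjusted p = 0.66) against non-targeting replicate 1 alone, and its call was also lost without non-targeting replicate 2, non-targeting replicate 3 or FABP4 shRNA replicate 3. Against non-targeting replicate 1 alone 2 factors rose and 4 fell, with a median of -0.03, and without that array 2 rose and 10 fell.

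Tested were 12 cytokines and ligands that induce MMPs in other systems. With rosiglitazone 2 rose and 4 fell, beside 17% and 19% of all genes. IL11 fell from 9.97 ± 0.10 to 6.33 ± 0.24 (log2 change -3.64, adjusted p = 7.3e-09) and IL6 from 8.72 ± 0.22 to 5.89 ± 0.23 (-2.83, adjusted p = 7.9e-09; SD, n = 3 each). TNF, not detected in UM-UC9 controls, was at least 1.65-fold higher with the drug (adjusted p = 0.00093). It was detected on the 3 rosiglitazone arrays alone and passed the filter only through them, so that being bright with the drug was a condition of its test. With FABP4 shRNA 0 rose and 4 fell, beside 14.2% and 12.2% of all genes, and 1 was higher at an unadjusted p below 0.05. The chemokine gene CXCL8 fell from 8.83 ± 1.14 to 5.99 ± 0.16 (-2.83, adjusted p = 0.00026), the EGF receptor ligand HBEGF changed by -1.06 (adjusted p = 0.0088) and the cytokine IL1A by -0.99 (adjusted p = 0.0087). The 3 non-targeting arrays spread widely for these genes, and against replicate 1 alone the changes were -1.66, -0.59 and -0.61, each still called. HBEGF and IL1A were not called in a fit of the UM-UC14 arrays alone (adjusted p = 0.063 for each).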

How the data were processed

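RNA of 12 samples was hybridized to 1 Illumina bead array each, and the labels do not say whether the samples of a group were separate cultures. The deposited raw table gave the intensity of 47323 probes per array on a linear scale, with no background subtraction or scaling seen in the values. For each probe and array a detection p-value was deposited beside it, in steps set by 770 negative controls. The authors' processed values are log2 intensity with quantile normalization, which was checked on the values: the largest gap to raw intensities put through log2 and quantile normalization was 0.000208. No label or header names the scanner software.

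Raw intensities were background corrected with limma 3.58.1 in R 4.3.3 (normexp with background inferred from detection p-values, offset 16), quantile normalized and put on the log2 scale. Quantile normalization hides a shift of all genes, and background correction widens differences between dim probes. The filter kept 25176 probes that were detected (p below 0.05) on 3 or more of the 12 arrays. Gene names came from the platform annotation (30113 probes with 1 gene, 8 with several, 17202 with none). Each of 13293 genes was represented by its kept probe with the highest mean. One linear model, with a coefficient for each group, covered all 12 arrays (lmFit and eBayes, 8 residual and 5.43 prior degrees of freedom), and p-values were Benjamini-Hochberg adjusted over all genes tested. Calls needed an adjusted p below 0.05, and between the lines also a fold of at least 2. Where a gene was detected on no array of a group, the fold is a lower bound: the bright group's mean over the dim group's mean of the higher of each array's lowest detected signal and the probe's own. The number of arrays limits the precision. SE values come from the model, and SD values from 3 arrays. The fit was tested on simulated data.

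Named were all members, FABP4 and PPARG as label checks, up to 3 called genes with the largest change per list in each treatment comparison, and 2 genes like each of 3 members. PPARG had means of 14.71 and 14.25 in UM-UC9 and of 12.71 and 12.51 in UM-UC14, control first. The members and lists were chosen with earlier results of these data known, so their counts are descriptions. Alternatives covered background, scaling, the authors' values, offset, filters, probe choice, the fit, the controls and leaving out each array. Replicate numbers were not used to pair arrays: the deviations of same-numbered arrays correlated at -0.036 to 0.15 within the treatment comparisons and at -0.086 to -0.025 between the lines.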

Additional observations from a re-analysis of the deposited data

Results flagged for a closer look

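The change with rosiglitazone in UM-UC9 and the change with FABP4 shRNA in UM-UC14 gave a contrast past the threshold (limma, Benjamini-Hochberg adjusted) for 3 members, each of them undetected on all 6 UM-UC9 arrays. The log2 difference, drug change minus shRNA change, was 0.84 for MMP13 (SE 0.18, adjusted p = 0.0021), 0.54 for MMP14 (SE 0.17, adjusted p = 0.019) and -0.36 for MMP2 (SE 0.12, adjusted p = 0.030). The MMP2 call was lost in 9 of 22 alternatives (adjusted p up to 0.11) and the MMP14 call in 2 of 22 (up to 0.052). For MMP13 and MMP14 it came from a fall with the shRNA (-0.86 and -0.49) beside a fitted drug change near 0 (-0.02 and 0.05), and for MMP2 from -0.24 beside 0.12. Since the UM-UC9 side compares undetected values, the contrast does not show that the genes respond differently to the drug and the shRNA. The perturbations were made in different lines, so that line and perturbation cannot be told apart.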

How the results depend on the processing

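The number of members called was compared over all alternatives, of which those on detection in the groups compared were chosen after seeing the data (2, 3, 3 and 6 members for the drug, the shRNA, their difference and the lines). With the drug, 3 members became 1 with an offset of 50 and 1 with detection p below 0.01 on all 12 arrays, and 1 to 3 when an array was left out (without rosiglitazone replicate 1 the 1 was MMP28, higher). It was 4 with arrayWeights, MMP28 added. With the shRNA it stayed at 3 to 3 without any 1 array and was 0 under the strict filter, which left TIMP1 and TIMP2 to test. For the difference, 3 became 5 with median scaling, 5 with the mean of a gene's probes, 6 with arrayWeights, 0 under the strict filter, and 2 to 5 without an array, 5 of them without non-targeting replicate 1. Between the lines, 6 became 2 under the strict filter and 5 to 6 without an array. MMP13 fell under 2-fold there without background correction, with the authors' values, with the offset of 50 and against non-targeting replicate 1 alone (0.89). The cause of these moves, the strict filter apart, was not tested. No called change reversed. The MMP2 call was lost in 13 of 22 alternatives with the drug and in 9 of 22 for the difference. With the replicate block (replicate number as a factor) 2, 3, 3 and 6 members and 4705, 3368, 5411 and 3449 genes were called, beside 4789, 3502, 5520 and 3449 without it. The MMP2 call with the drug was the one lost under the block. For the shRNA, 1779 genes were called from the UM-UC14 arrays alone and 1945 against non-targeting replicate 1 alone, beside 3502. A fit of only the groups compared was not run for the difference, which uses all 4. Signals near background limit what can be said of MMP1, MMP9 and MMP10 in all groups, of MMP2, MMP13, MMP14 and MMP28 in UM-UC9, and of MMP7 in UM-UC14.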

Other observations

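MMP12, the macrophage elastase gene next to MMP13 on chromosome 11, did not pass the filter, and is named here after its values were seen. Its first probe had normalized log2 values of 4.52, 5.45 and 5.44 with non-targeting shRNA and of 4.78, 4.69 and 4.68 with FABP4 shRNA, and its second 4.46, 4.90 and 5.24 against 4.45, 4.67 and 4.70. At both probes MMP12 was detected on non-targeting replicates 2 and 3 and on no other of the 12 arrays. Non-targeting replicate 1, the array that stood apart from its group, was below detection for MMP12 and had the lowest MMP13 value of its group (5.31).

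The second probe of MMP23B, which was kept but did not represent its gene, was also chosen after its values were seen. It had 4.96, 4.90 and 5.25 with non-targeting shRNA and 4.75, 4.74 and 4.75 with FABP4 shRNA, detected on 3 of 3 and on 0 of 3 arrays. At the tested MMP23B probe, detected on all 12 arrays, the values were 5.51, 5.62 and 5.32 against 5.69, 5.06 and 5.41, which overlap. No test was made on these choices.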
